A study of Mus musculus with 6 samples.

Results

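FANTOM3 entries are transcripts named after full-length mouse cDNA clones of the FANTOM3 collection, and they make up 33353 of the 64529 entries in the count table of these lungs. They were taken by their name alone, and the other 31176 entries are RefSeq transcripts. RNA-seq was performed on whole lung tissue of C57BL/6 mice (C57BL/6J for the floxed and Cre lines) aged 6 to 8 weeks, of which 9 were wild type (WT) and 9 were homozygous TSPO knockouts (KO). Tspo encodes an outer mitochondrial membrane protein. The KO allele came from a floxed Tspo gene whose exons 2 and 3 were removed in the male germline by Cre under the protamine promoter, so the deletion was present in the whole body. RNA of 3 littermates was pooled for each library, which gave 3 WT and 3 KO libraries, and the spread between libraries is that of pools. In whole tissue, fewer cells of a type and less RNA per cell cannot be told apart.

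The FANTOM project cloned full-length cDNAs from many mouse tissues, stages and cell types and sequenced them, so its clones cover coding messages, alternative transcript ends, unspliced precursors and many noncoding RNAs. A clone ID begins with its plate series, and a gene first seen as a clone often carries the ID with the ending Rik as its symbol or as an older name. Noncoding RNAs form a large part of what such clones added to gene catalogues. Several of them, such as Malat1 and Neat1, stay in the nucleus.

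The clones themselves carry no position, gene name or length in the count table. Through Rik symbols and synonyms of the RefSeq annotation, 4502 clones could be tied to 4109 genes, 1537 by the current symbol and 2965 by an older one. Of these clones, 2684 belonged to protein coding genes and 1773 to long noncoding RNA genes. The remaining 28851 clones were untied, among them 32 that matched several genes. The starts of 3 noncoding RNA genes are shown because tied clones of these genes are described with their values further on. Each is the RefSeq window on GRCm38.p6 from 250 bases before the start of the gene to 50 bases after it, and capitals mark the 50 bases after the start. Malat1 lies on the minus strand with the window at chr19:5802623-5802922, Mirt1 on the minus strand at chr19:53464747-53465046, and Snhg11 on the plus strand at chr2:158375463-158375762.
Malat1: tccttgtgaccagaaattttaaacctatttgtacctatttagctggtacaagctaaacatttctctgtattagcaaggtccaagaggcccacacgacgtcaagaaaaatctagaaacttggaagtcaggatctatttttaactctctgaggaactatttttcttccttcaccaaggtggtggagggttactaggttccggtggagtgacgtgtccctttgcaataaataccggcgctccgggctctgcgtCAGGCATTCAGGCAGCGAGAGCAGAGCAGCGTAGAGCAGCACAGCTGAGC
Mirt1: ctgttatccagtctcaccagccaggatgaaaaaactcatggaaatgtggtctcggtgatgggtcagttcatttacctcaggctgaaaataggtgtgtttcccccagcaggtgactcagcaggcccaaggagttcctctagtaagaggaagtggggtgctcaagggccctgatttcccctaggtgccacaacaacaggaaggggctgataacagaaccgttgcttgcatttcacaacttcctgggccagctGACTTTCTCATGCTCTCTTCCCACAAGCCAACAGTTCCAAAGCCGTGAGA
Snhg11: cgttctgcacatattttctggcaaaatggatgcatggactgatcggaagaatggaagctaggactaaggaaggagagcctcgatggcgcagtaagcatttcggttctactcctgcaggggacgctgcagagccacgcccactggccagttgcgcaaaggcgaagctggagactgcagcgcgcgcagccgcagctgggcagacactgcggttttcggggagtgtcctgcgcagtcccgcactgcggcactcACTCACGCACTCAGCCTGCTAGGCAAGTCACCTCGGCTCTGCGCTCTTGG

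The 50 capital bases of each window were found in a GENCODE transcript. The windows differed in composition. GC content was 47.0% in Malat1, 51.3% in Mirt1 and 60.0% in Snhg11, with 10, 3 and 21 CG dinucleotides. None of the 3 held the TATA box, GC box or CCAAT box letters searched on both strands. The TATA box letters TATAAA were found in 13.6% of 32544 RefSeq windows of this kind. The GC box was searched as GGGCGG, which 35.9% of these windows held. The letters CCAAT were found in 37.4%, and none of the 3 motifs contains another.

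Most clones were rarely or never counted in lung. No count was found in any of the 6 libraries for 4720 clones (14.2%), and another 15952 had counts but too few for a test. The remaining 12681 clones (38.0%) passed the filter on low counts, compared with 20627 of the RefSeq entries (66.2%). The tested clones had a median total of 301 counts over the 6 libraries, against 1741 for tested RefSeq entries. Levels of single clones are not compared with each other here, since clone lengths are not known. Classes and medians of level used further on are not adjusted for length. Clones tied to protein coding genes passed in 73.4% of cases, those tied to long noncoding RNA genes in 20.1%, and untied clones in 35.8%.

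The share of clones with enough lung counts varied with the plate series. There were 193 series, of which 55 held at least 200 clones, and in these the tested share ran from 17.9% to 73.7%, with a median of 37.5%. The series 4930 and 1700, which were made from testis, stood lowest. In series 4930, 247 of 1383 clones were tested and 39.0% were at 0 in all libraries. In series 1700, 192 of 966 clones were tested and 43.2% were at 0. Series 1110 stood highest, with 269 of 365 clones tested.

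**Figure D1:**
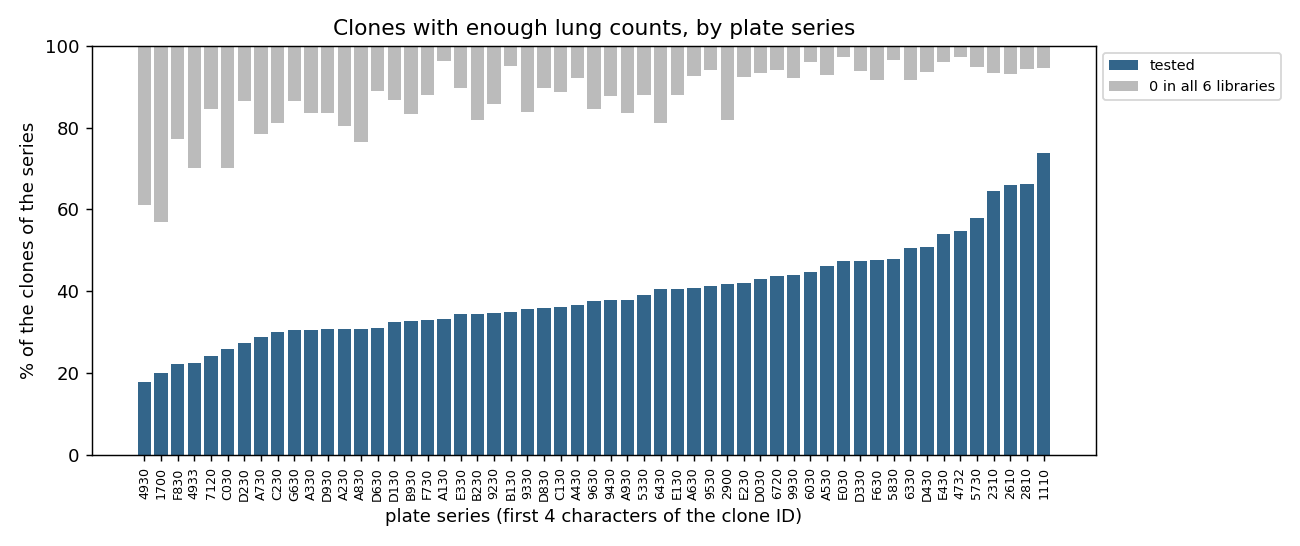
Percentage of the clones of each plate series (the 55 series with at least 200 clones, x axis) that were tested (blue bars from 0) or at 0 in all 6 libraries (grey bars hanging from 100%). Series 4930 had the lowest tested share at 17.9% and series 1110 the highest at 73.7%.

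Library totals over all entries lay between 16180108 and 19453607 counts, of which 2082631 to 2992569 fell on FANTOM3 entries. The tissue markers were those of lung, with the 15 alveolar type 2 markers found summing to between 22243 and 29698 CPM in each library. CPM are counts divided by the TMM-scaled size of the library, and log2 fold changes are KO against WT, so that a negative value is lower in KO. WT library 3 had a TMM factor of 0.876, against 1.01 to 1.06 in the other libraries. In WT library 2, 16 genes of squamous epithelium summed to 879 CPM, against 14.7 to 19.8 CPM in the other libraries. In the same library 20 genes of fast skeletal muscle summed to 254 CPM, against 47.2 to 67.0 CPM. Tspo checked the genotype labels, with WT counts of 1721, 1766 and 1307 and KO counts of 234, 262 and 200 (log2 fold change -2.86, SE 0.11).

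FANTOM3 entries took 13.4%, 12.7% and 18.5% of all counts in WT libraries 1, 2 and 3, and 12.9%, 12.7% and 12.7% in KO. The WT and KO libraries overlapped, and the mean difference of -2.06 percentage points was not separated from the spread (two-sided exact permutation test, p = 0.4, and 3 against 3 cannot go below 0.1). The high share in WT library 3 came with a few clones. The 10 clones with the highest totals took 42.5% of the FANTOM3 counts there, against 5.88% to 7.54% in the other libraries.

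Clones 7120418K18, B130017A18 and 7120485G19 had the highest totals of the collection. 7120418K18 had WT counts of 9751, 11149 and 461967 and KO counts of 14584, 20979 and 9840. B130017A18 had WT counts of 7715, 9571 and 370290 and KO counts of 13735, 16846 and 7251. 7120485G19 had WT counts of 6748, 8332 and 328658 and KO counts of 11984, 14915 and 6261. All 3 were far above the other libraries in WT library 3 alone. In the other libraries the CPM of B130017A18 and 7120485G19 overlapped between genotypes. Those of 7120418K18 did not, with 535 and 583 CPM in WT libraries 1 and 2 and 822, 1070 and 589 CPM in KO. Rn45s, the precursor of ribosomal RNA, followed the same order of libraries apart from the lowest pair in 7120418K18, with WT counts of 23569, 29760 and 1096706 and KO counts of 40299, 51003 and 22596. Lars2, the mitochondrial leucyl-tRNA synthetase gene, had WT counts of 4792, 5433 and 216276 and KO counts of 6792, 10594 and 4830. A lower clone, G630003D01, had WT counts of 56, 77 and 2595 and KO counts of 76, 127 and 58. With all libraries the log2 fold changes of the first 3 were -3.77, -3.71 and -3.73, and without WT library 3 they turned to 0.57, 0.58 and 0.58. The part of ribosomal RNA in these clone counts was not tested.

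Without these 4 clones, Rn45s and Lars2, a choice made after the data were seen, FANTOM3 entries took 13.3%, 12.6% and 13.3% of the counts in WT and 12.8%, 12.5% and 12.6% in KO (two-sided exact permutation test, p = 0.3). The genotypes still overlapped.

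**Figure D2:**
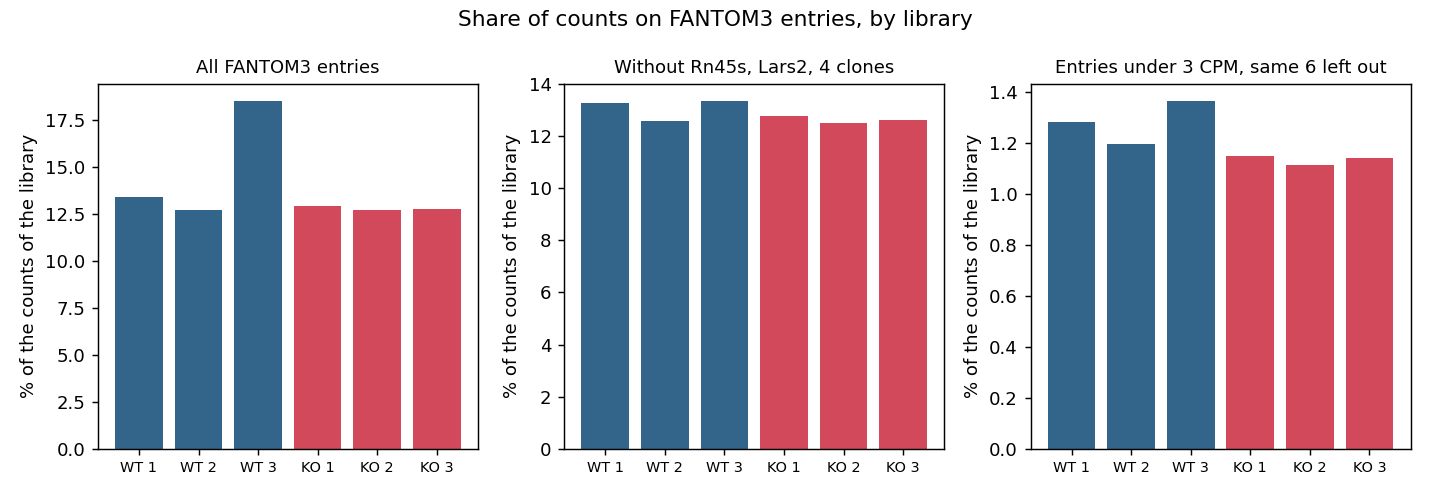
Percentage of the counts of each library that fell on FANTOM3 entries, with 1 bar per library (WT blue, KO red) and axes from 0. The left panel shows all entries, the middle panel leaves out Rn45s, Lars2 and 4 clones, and the right panel shows only entries under 3 CPM with the same 6 left out, where the 3 KO bars (1.11% to 1.15%) are below the 3 WT bars (1.20% to 1.37%).

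The comparison of KO with WT asks whether loss of TSPO changed these transcripts in the lung of mice given no further treatment. No FANTOM3 entry passed edgeR's quasi-likelihood test at a Benjamini-Hochberg adjusted p under 0.05, and Tspo was the only entry of the table to pass, 1 of 33308 (0.003%). DESeq2 and limma-voom also gave 0 FANTOM3 entries, and edgeR's exact test gave 1. The 95% interval of the fold change lay within 2-fold for 10490 tested clones (82.7%), against 90% of all entries, and the median SE was 0.23 on the log2 scale for clones and 0.14 for RefSeq entries.

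At an unadjusted p under 0.05, 409 clones were lower in KO (3.23%) and 70 were higher (0.552%). Over all entries tested, 2.1% were lower and 0.573% were higher. The 3 KO libraries lay below the 3 WT libraries without overlap in 827 clones (6.52%), against 4.22% of all entries, and above them in 267 (2.11%), against 2.55%. A clone could pass the filter through the libraries of 1 genotype alone, and among the 10900 clones with at least 10 counts in every library 333 were lower and 54 higher at an unadjusted p under 0.05. Among all tested clones, the share of lower entries was above that of the whole table and the share of higher entries was not, and this difference between kinds of entry was not tested. Scaling by factors computed on FANTOM3 entries moved the unadjusted counts to 292 lower and 132 higher. DESeq2 gave 196 lower and 21 higher, and the quasi-likelihood test with no filter gave 859 lower and 167 higher among 28633 clones. The count of lower clones was 245 without KO library 2, and that of higher clones was 147 without WT library 3, 110 without WT library 1 and 109 without KO library 3. Shares over all entries in these other settings are not given here, so the counts do not set clones apart from other entries.

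The difference between genotypes depended on the level. The median log2 fold change of tested clones was -0.04, with 7284 below 0 and 5397 above it, and it was 0.02 for RefSeq entries and 0.00 for all entries. The median of the clones turned to 0.01 with no composition scaling and with factors from FANTOM3 entries. It was -0.18 for the 2377 clones under 1 CPM, -0.08 between 1 and 3 CPM, -0.02 between 3 and 10 CPM, 0.01 between 10 and 30 CPM and 0.04 at 30 CPM or more. RefSeq entries had -0.08, -0.04, -0.01, 0.02 and 0.03. This RefSeq order broke without WT library 1, where the upper 2 classes had 0.024 and 0.0068, and without WT library 3, where the lower 2 had -0.038 and -0.040, or without WT libraries 2 and 3, where they had -0.064 and -0.074. The median of clones under 1 CPM stayed between -0.21 and -0.13, and that between 1 and 3 CPM stayed between -0.11 and -0.03, under all 20 alternatives run. Every alternative used the classes of the main fit and only entries that had passed its filter. With at least 10 counts in every library, 686 of the 2377 clones under 1 CPM were left, with a median of -0.15. In other classes the direction turned, as FANTOM3 medians ran from -0.040 to 0.030 between 3 and 10 CPM and from -0.0059 to 0.060 between 10 and 30 CPM, and RefSeq medians from -0.074 to 0.012 between 1 and 3 CPM.

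**Figure D3:**
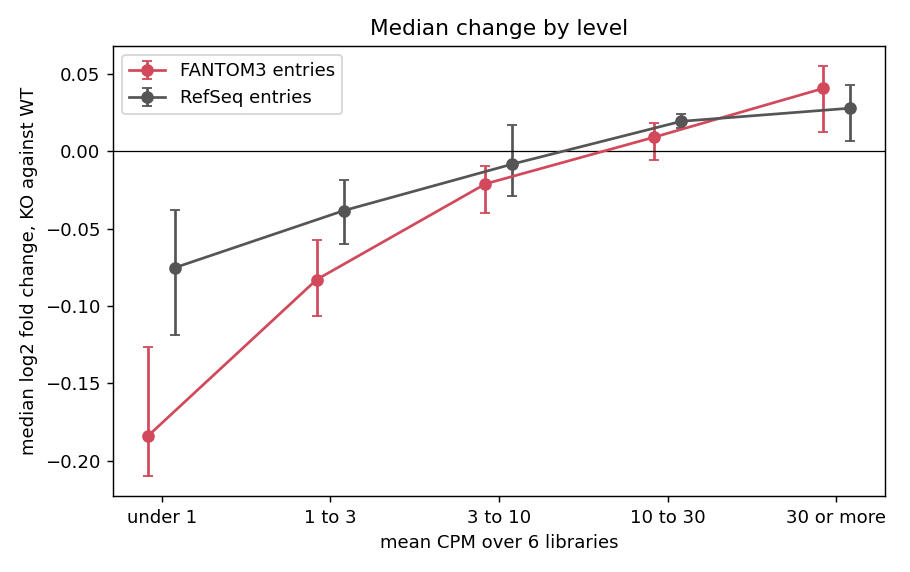
Median log2 fold change of KO against WT (y axis) for tested FANTOM3 (red) and RefSeq entries (grey) in 5 classes of mean CPM over the 6 libraries (x axis). Bars span the lowest and highest median when each library was left out in turn. The FANTOM3 medians run from -0.18 under 1 CPM to 0.04 at 30 CPM or more.

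The low clones were also compared as a sum. All FANTOM3 entries under 3 CPM together took 1.28%, 1.20% and 1.37% of WT counts and 1.15%, 1.11% and 1.14% of KO counts when Rn45s, Lars2 and the 4 clones were left out. The genotypes did not overlap (mean 1.28 ± 0.0842 (SD) in WT and 1.14 ± 0.0190 in KO, n = 3, p = 0.1 in a two-sided exact permutation test, which is as small as it can be). RefSeq entries under 3 CPM took 0.635%, 0.632% and 0.598% in WT and 0.561%, 0.574% and 0.574% in KO, again without overlap (two-sided exact permutation test, p = 0.1). The ratio of the FANTOM3 to the RefSeq sum was 202%, 189% and 228% in WT and 205%, 194% and 199% in KO. This ratio overlapped between genotypes (difference of -7.18 percentage points, two-sided exact permutation test, p = 0.8). The lower sum in KO was therefore not shown to be particular to FANTOM3 entries. The number of clones with 10 or more counts was 13072, 13114 and 12623 in WT and 12508, 12743 and 12277 in KO, and these values overlapped.

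All 20 clones with the smallest p were lower in KO, and in all 20 the CPM of the 3 KO libraries lay below those of the 3 WT libraries. Since these clones were picked by their p, this is a description. The filter on low counts also selected among them. Clone 9830142B20, with KO counts of 6, 5 and 4, was tested through its WT libraries alone. A930034C21 (KO counts of 8, 12 and 5) and 9930017N22 (7, 7 and 11) were under the minimum count in part of KO. Others, such as C430029M22, were above it in every library. The part of the filter in the shared direction was not tested. The adjusted p of the 20 clones was 0.9999 in edgeR's quasi-likelihood test with Benjamini-Hochberg adjustment. C430029M22 stood first, with WT counts of 41, 47 and 40 and KO counts of 21, 20 and 15. Its WT level was 2.51 ± 0.296 CPM (SD, n = 3) and its KO level 1.03 ± 0.143 CPM, with a log2 fold change of -1.27 and an SE of 0.24. It passed in edgeR's exact test (Benjamini-Hochberg adjusted p = 0.0401) and in the quasi-likelihood test without a filter (Benjamini-Hochberg adjusted p = 0.0363), whereas its adjusted p was at least 0.797 in each of the other alternatives run. No annotation used here names a gene for it.

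F830206D12 had WT counts of 63, 48 and 40 and KO counts of 25, 28 and 26, or 2.93 ± 0.480 CPM and 1.46 ± 0.0799 CPM (SD, n = 3), with no overlap. The RefSeq transcript Gm11648 had the same 6 counts, so both entries give 1 measurement. Clone 5830416P10 is tied to Mirt1, a noncoding RNA gene named for its link with myocardial infarction. It had WT counts of 46, 34 and 47 and KO counts of 21, 23 and 18, with no overlap, and a log2 fold change of -1.12 (SE 0.27). The RefSeq transcript of Mirt1, under its older name 5830416P10Rik, had WT counts of 81, 77 and 70 and KO counts of 46, 50 and 49 (log2 fold change -0.73, SE 0.19).

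The most counts of the 20 were found for D330013I01, with WT counts of 536, 515 and 475 and KO counts of 393, 430 and 353 (log2 fold change -0.46, SE 0.11). A530062I02 followed, with WT counts of 230, 216 and 220 and KO counts of 158, 152 and 156 (log2 fold change -0.60). D430034D21 had WT counts of 111, 104 and 87 and KO counts of 72, 77 and 63 (log2 fold change -0.59). The other 14 clones were A430010F01, F930018I05, A130094P19, 4831430G22, F430011M13, F830112P20, 9830142B20, B020012M17, 4833407H14, A930034C21, 0710001D16, 9930017N22, I920040M19 and B930031P11, with log2 fold changes between -1.50 and -0.67. The largest of these, 9830142B20, rested on WT counts of 12, 17 and 12 and KO counts of 6, 5 and 4.

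**Figure D4:**
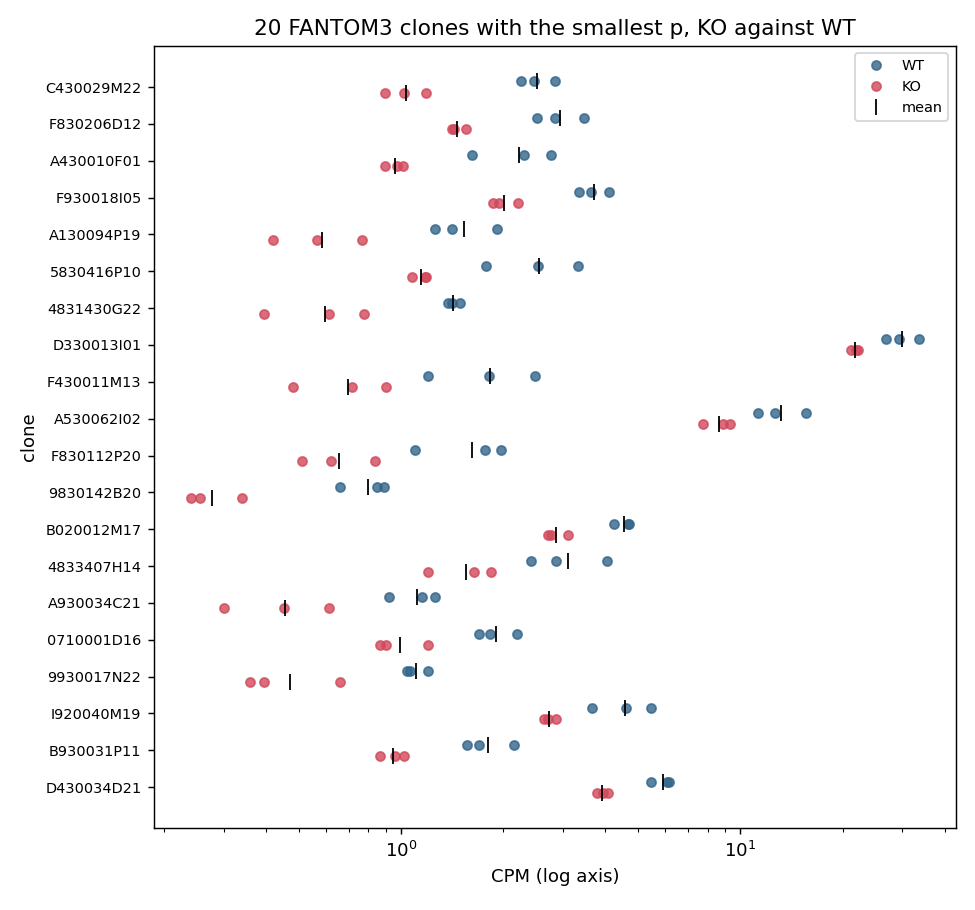
CPM of the 20 clones with the smallest p (log x axis), with 1 point per library (WT blue, KO red) and a vertical mark at each group mean. In every clone the 3 KO points are left of the 3 WT points, and C430029M22 at the top has means of 2.51 and 1.03 CPM.

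Among clones higher in KO, those described were chosen after their values were seen. D230010O13, tied to Nck1, a gene for an adaptor protein that couples receptors to the actin skeleton, had the smallest p of these. It had WT counts of 17, 24 and 18 and KO counts of 32, 47 and 35, with no overlap (log2 fold change 0.87, SE 0.25). Clone 9630045G24, which is untied, had WT counts of 4, 4 and 7 and KO counts of 15, 13 and 13 (log2 fold change 1.35, SE 0.42). Its WT counts were under the minimum count of the filter, so it was tested through its KO libraries alone. The filter therefore favoured a value above 0 for this clone. Neither D230010O13 nor 9630045G24 passed the threshold in edgeR's quasi-likelihood test with Benjamini-Hochberg adjustment.

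A list of 56 long noncoding RNA genes was examined through its clones. Clones were tied to 32 of these genes, 45 clones in all, of which 30 were tested and none passed the adjusted threshold, against 0.003% of all entries. Of the 30, 19 were below 0 and 11 above it, with a median log2 fold change of -0.19, beside a median of 0.00 for all entries. Many of the 30 were low, and tested clones of any kind had medians of -0.18 under 1 CPM and -0.08 between 1 and 3 CPM. The part of level in the median of the list was not tested. Genes such as Malat1, Airn and Firre entered more than once. At an unadjusted p under 0.05, 4 clones were lower in KO (background 2.1%) and none was higher (background 0.573%). Those 4 belonged to Neat1, Malat1 and Snhg11.

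Neat1 builds the paraspeckles of the nucleus. Its clone 2310043N10 had WT counts of 11935, 11309 and 8937 and KO counts of 7823, 8561 and 9146. On the CPM scale the genotypes did not overlap, with 654, 591 and 633 CPM in WT and 441, 437 and 547 CPM in KO (log2 fold change -0.40, SE 0.13). The RefSeq transcript of Neat1 had WT counts of 19647, 19078 and 15698 and KO counts of 12570, 15128 and 15316 (log2 fold change -0.41). Another 5 clones, 4732452C17, I1C0033O14, I1C0035O03, I1C0046E22 and I420019F22, had exactly these 6 counts and add no further evidence.

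Malat1 is an abundant RNA of nuclear speckles, and its start is printed above. Clone 9430072K23 had WT counts of 3327, 3675 and 3936 and KO counts of 2935, 3002 and 2862, without overlap (log2 fold change -0.42, SE 0.15). Clone 2210401K01 had WT counts of 5064, 6114 and 6191 and KO counts of 4129, 5374 and 4749, with CPM that overlapped between genotypes (log2 fold change -0.39, SE 0.16). Without WT library 3 the log2 fold changes of the 2 clones were -0.20 and -0.18. The clones share a gene and are not independent.

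Snhg11 is a host gene of small nucleolar RNAs. Its clone E130013N09 had WT counts of 148, 140 and 105 and KO counts of 106, 103 and 111, which gave 8.11, 7.32 and 7.43 CPM in WT and 5.97, 5.25 and 6.64 CPM in KO (log2 fold change -0.36, SE 0.16). The clones named next, of Snhg genes, Airn and Fendrr, were chosen after their values were seen. Other clones of small nucleolar RNA host genes lay on both sides of 0, with 0.34 for Snhg8, 0.31 for Snhg6, -0.33 for Snhg17 and -0.46 for Snhg7. The clone with the lowest value of the list was B930018I07 of Airn, the RNA antisense to Igf2r, with WT counts of 23, 15 and 35 and KO counts of 16, 14 and 17 (log2 fold change -0.73), and these counts overlapped. The long noncoding RNA of lung mesenchyme Fendrr had WT counts of 1057, 1091 and 619 and KO counts of 771, 585 and 936 in its clone 1110050K14, also with overlap (log2 fold change -0.30). All 357 tested clones tied to long noncoding RNA genes, on the list or not, had a median of -0.05, with 13 lower and 4 higher at an unadjusted p under 0.05. The 13 include the clones of Neat1, Malat1 and Snhg11 described above. The 1969 clones tied to protein coding genes had a median of -0.0036, with 22 lower and 6 higher. Untied clones numbered 10343, with a median of -0.04 and 374 lower and 60 higher. Over all entries tested, 2.1% were lower and 0.573% were higher. Median levels were 1.59 CPM for clones of long noncoding RNA genes, 4.38 CPM for those of protein coding genes and 2.69 CPM for untied clones. Kind and level were not separated.

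**Figure D5:**
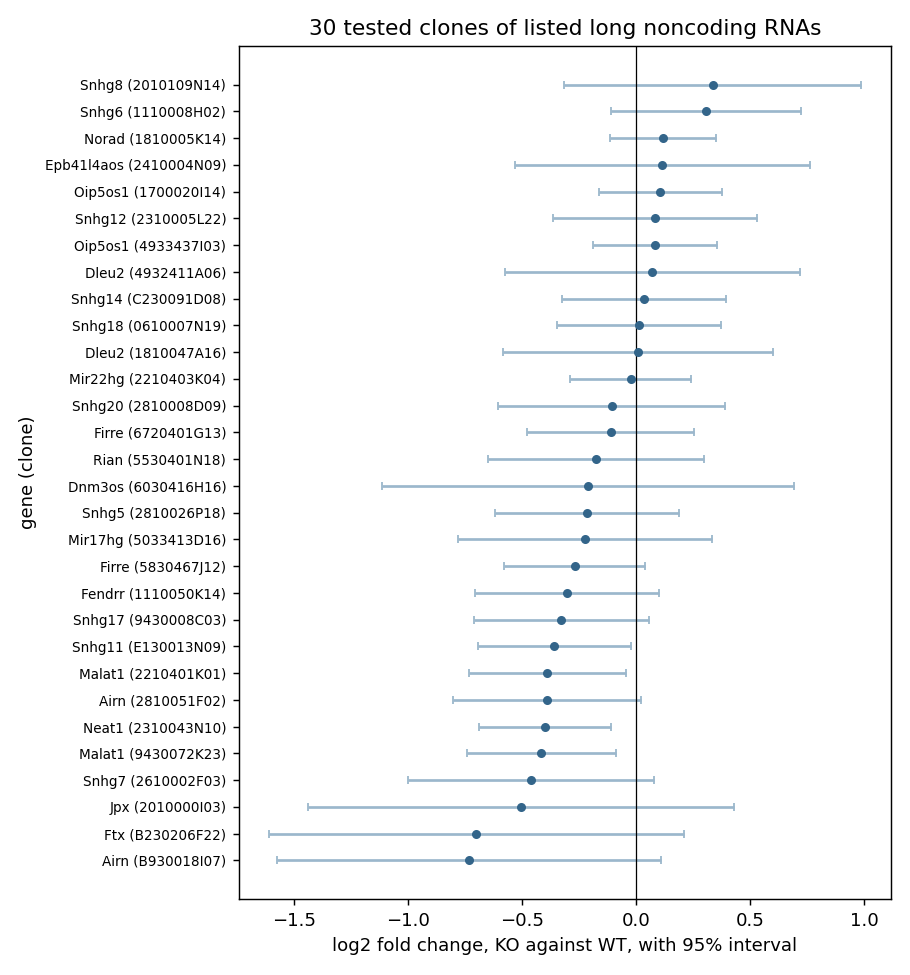
Log2 fold change of KO against WT with its 95% interval (x axis) for the 30 tested clones of the listed long noncoding RNA genes, ordered by value (gene and clone on the y axis). The intervals of Neat1, Snhg11 and both Malat1 clones lie below 0, and no interval lies above it.

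Of 20 circadian clock genes, 5 had a tested clone, 3 above and 2 below 0, and none passed at an unadjusted p under 0.05. Clone 2310028D20 of Tef, a transcription factor under clock control, had WT counts of 570, 635 and 408 and KO counts of 640, 684 and 646. Its CPM did not overlap, with 31.2, 33.2 and 28.9 in WT and 36.1, 34.9 and 38.7 in KO (log2 fold change 0.23, SE 0.11). Clone 2810049O06 of Per3, a period gene, had WT counts of 56, 61 and 40 and KO counts of 66, 61 and 71, with CPM that overlapped (log2 fold change 0.28, SE 0.20). Bhlhe41, a repressor of the clock, had -0.25 (SE 0.34) in clone 6430520M22, and Rora, a nuclear receptor of the clock, had 0.06 (SE 0.15) in clone 9530021D13. No clone was tied to Tspo, and of its neighbours on chromosome 15 clones were tied to Scube1, a secreted protein gene (7330410C13, log2 fold change -0.16, SE 0.33), and to Poldip3, which encodes a partner of DNA polymerase delta (1110008P04, log2 fold change -0.02, SE 0.13). Of the other lists, 9 had no clone tied by a Rik name, so tied clones give no value for them. These were the lists of club cells, endothelium, alveolar macrophages, neutrophils, T and B cells, red cells, fast skeletal muscle, fat and immediate early genes. Untied clones with counts close to those of Pecam1 and Scgb3a1 are described further on. The remaining lists had 11 tested clones of 11 genes tied by name, 10 below 0 and 1 above it. Their log2 fold changes lay between -0.48 and 0.07, with none at an unadjusted p under 0.05.

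WT library 2 stood apart in other clones. I0C0030C13 had WT counts of 17, 367 and 15 and KO counts of 8, 15 and 28, and A530099A19 had WT counts of 8, 185 and 19 and KO counts of 7, 17 and 7. Both were high in that library only, and the other libraries of WT and KO overlapped. The log2 fold changes were -2.92 and -2.77 with all libraries and -0.06 and -0.57 without WT library 2. H19, an imprinted noncoding RNA, had WT counts of 20, 388 and 17 and KO counts of 8, 17 and 31, close to I0C0030C13 in each library. Pck1, a fat and liver enzyme of gluconeogenesis, had WT counts of 37, 752 and 69 and KO counts of 18, 41 and 35. Clone 1110005D19 of Sbsn, a gene of squamous epithelium that was chosen after its values were seen, had WT counts of 43, 100 and 26 and KO counts of 43, 51 and 31. The part of squamous, muscle or fat tissue in the clone counts of this library was not tested. Of the tested clones, none reached 4 times the highest other library in WT library 1 or in a KO library, whereas 2 did in WT library 2 and 4 in WT library 3.

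Of the 5 clones with the highest totals, 7530417E14 and 2700043O08 were the ones that were not high in WT library 3. Clone 7530417E14 had WT counts of 16383, 19203 and 16369 and KO counts of 15853, 30345 and 17776 (log2 fold change 0.19, SE 0.20). Clone 2700043O08 had WT counts of 14801, 17328 and 14772 and KO counts of 14397, 27431 and 16105 (log2 fold change 0.20, SE 0.19). Both were highest in KO library 2 and overlapped between genotypes. Scd1, the stearoyl-CoA desaturase of lipid synthesis, had WT counts of 23462, 29056 and 23527 and KO counts of 23013, 44357 and 25841. The 3 entries shared the same order of libraries apart from small steps between WT libraries 1 and 3, and whether they share reads was not tested.

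Clones and RefSeq entries were not independent measurements. Of 12560 clones with a total of at least 60 counts, 245 (1.95%) had the same 6 counts as a RefSeq entry, and 329 (2.62%) had the same counts as another clone, in 151 sets. Of 2605 clones with a total of at least 1000, 134 (5.14%) had all 6 counts within 2% of a RefSeq entry, of 101 genes. Where such a clone was tied to a gene, in 23 cases, the gene names could be matched in 22. In the other case the names differed, which does not show a different gene. Genes known in lung were among them, and the ones given here were chosen after their values were seen. Clone E030032D13 had the same counts as Sfta2, a surfactant associated protein gene, with WT counts of 627, 568 and 463 and KO counts of 760, 728 and 576 (log2 fold change 0.24, SE 0.12, unadjusted p = 0.0586 in edgeR's quasi-likelihood test). Clone E030040K24 had the same counts as Fendrr, with WT counts of 1932, 2321 and 1435 and KO counts of 1669, 1466 and 1871 (log2 fold change -0.23, SE 0.14).

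Clone D330012C15 came within 0.508% of Pecam1, the endothelial adhesion molecule, with WT counts of 10629, 11710 and 10323 and KO counts of 13039, 13778 and 10538 (log2 fold change 0.10, SE 0.14). Clone A630021B08 came within 0.683% of Eln, which encodes elastin, with WT counts of 4166, 10853 and 9531 and KO counts of 3514, 7323 and 16390. These counts varied widely within both genotypes (log2 fold change 0.08, SE 0.46). Clone 1110030K16 came within 0.477% of Scgb3a1, an airway secretoglobin, with WT counts of 3049, 838 and 1888 and KO counts of 1474, 3212 and 2542 (log2 fold change 0.21, SE 0.36). In each of the 3 the genotypes overlapped. The largest such group had 18 clones beside Rpl41, a ribosomal protein gene, and the highest of them, 2410013O09, had WT counts of 6163, 4811 and 3148 and KO counts of 6590, 5410 and 4482 (log2 fold change 0.17, SE 0.17).

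For 2213 tested clones tied to a gene with a RefSeq entry, the count could be set beside the highest entry of that gene. The clone held a median of 21.0% of the RefSeq count. This was 97.3% for the 269 clones of long noncoding RNA genes and 17.8% for the 1935 of protein coding genes. It was under 10% for 590 clones, 10% to 50% for 1090, 50% to 100% for 343 and 100% or more for 190.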

How the data were processed

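RNA of lung from WT and TSPO KO mice was sequenced as paired-end reads and aligned by the authors to mm10 with TopHat (per the labels and the study's methods). The deposited values are raw counts per transcript, not normalized. The sources used here do not give the counting tool, its annotation release, its strand setting or its treatment of shared reads. Groups were taken from the sample labels.

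Each deposited entry was tested by itself over the whole table with R 4.3.3 and edgeR 4.0.16: filterByExpr (minimum count 10, minimum total 15) left 33308 entries, 12681 of them FANTOM3, followed by TMM scaling, the quasi-likelihood test and Benjamini-Hochberg adjustment over all 33308 (threshold 0.05, biological coefficient of variation 0.129). limma 3.58.1 and DESeq2 1.42.0 were alternatives. Intervals cover 95%. The fit was tested on simulated counts. Chi-square values per degree of freedom between libraries of 1 genotype were 3.95 to 92.0, so none was a copy of another.

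Clones were tied to genes by Rik names in the RefSeq annotation, and sequences are from RefSeq. The clones named were those past the threshold or, up to 20, with the smallest p, the 5 highest in total, up to 3 per library with at least 4 times the CPM of the highest other library, up to 4 tied to each list described, and those tied to neighbours of Tspo. Further clones named are said to be chosen after their values were seen. The members and the 20 gene lists (362 symbols) were chosen with earlier results of these data known. The labels do not name separate batches, and p-values measure the spread between pools.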

Additional observations from a re-analysis of the deposited data

How the results depend on the processing

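The number of FANTOM3 entries past the adjusted threshold was 0 with edgeR's quasi-likelihood test in all alternatives that kept the filter on low counts, with each library left out (0 to 0), with DESeq2 and with limma-voom, whereas it was 9 with no filter and 1 with edgeR's exact test (C430029M22). The 9 were C430029M22, 7120418K18, 7120485G19, B130017A18, G630003D01, A530099A19, I0C0030C13, 1100001A04 (5, 99 and 7 counts in WT, 3, 6 and 6 in KO) and A730029O17 (1, 1 and 0 in WT, 67, 1 and 1 in KO), and 8 of them were high in 1 library only.

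Counts of clones at an unadjusted p under 0.05 were 859 lower and 167 higher with no filter, 196 and 21 with DESeq2, and 292 and 132 with factors from FANTOM3 entries. Shares over all entries in the alternatives are not given here. Higher clones numbered 210 without WT libraries 2 and 3, an alternative chosen after seeing the data, as was leaving out Rn45s, Lars2 and 4 clones. With each library left out they numbered 50 to 147 higher and 245 to 531 lower, the median log2 fold change lay between -0.06 and -0.02, and the difference in the share of counts lay between -3.15 and -0.24 percentage points. The median turned to 0.0057 with no composition scaling and to 0.015 with factors from FANTOM3 entries.

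Among 37 named clones, 11 changed sign in at least 1 of 20 alternatives. With each library left out in turn, 7120418K18 ranged from -4.33 to 0.57, B130017A18 from -4.28 to 0.58 and 7120485G19 from -4.30 to 0.58, 7530417E14 from -0.056 to 0.36, 2700043O08 from -0.049 to 0.36, 7330410C13 from -0.52 to 0.048, 1110008P04 from -0.10 to 0.064, 6430520M22 from -0.54 to 0.076 and 9530021D13 from -0.047 to 0.18 in log2 fold change. Without WT libraries 2 and 3, 7120418K18, B130017A18 and 7120485G19 had 0.64, 0.71 and 0.72, 6430520M22 had 0.018, I0C0030C13 had 0.036 and A530099A19 had 0.38. Clone 1110008P04 had 0.016 with no composition scaling, 0.030 with factors from FANTOM3 entries and 0.0012 with DESeq2. Beyond the libraries left out, the causes were not tested.

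Same-numbered libraries correlated in their deviations by 0.15, -0.15 and -0.21. These values did not show that the numbers pair the samples, and with 3 libraries per genotype they cannot exclude it. A fit with the replicate block gave 0 entries past the threshold, 357 lower and 54 higher at an unadjusted p under 0.05. Tested clones had a median total of 301 counts, with 3 pools per genotype. Clone 9830142B20, picked by its p and tested through its WT libraries alone, had a log2 fold change of -1.50 and did not pass the adjusted threshold. Whether depth or the number of pools limited what could pass was not tested. A clone that did not pass is not shown to be unchanged.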
